A study of Mus musculus with 4 samples.

Results

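The interstitial matrix is the meshwork of collagens, elastic fibres, proteoglycans and adhesive glycoproteins that fills the space between cells of the mesenchyme. A list of 44 genes of this matrix was followed by gene symbol in RNA-seq values of 24771 features, and all 44 were found. The list holds 8 chains of fibrillar collagens, 3 chains of collagen VI, 3 fibril-associated collagens, 12 elastic fibre genes, 3 crosslinking enzymes, 8 proteoglycans and 7 adhesive and matricellular genes. The first group held 2 samples of SG placodes made from pluripotent stem cells (PSCs) and collected at day 10 of culture. They came from 129w2, an embryonic stem cell line of the mouse. For these placodes, 3000 cells per well were aggregated, with 2% Matrigel in the medium from day 1. BMP4 (2 ng/ml) was added on day 3, bFGF (25 ng/ml) together with RA (1 μM) on day 4, and, starting on day 6, FGF10 (200 ng/ml). The second group consisted of 2 samples of submandibular glands (SMGs) from mouse embryos at E12.5, for which no treatment, strain or allele is given. The culture text is repeated in the labels of the SMGs, and neither the dissection of the SMGs nor the number of embryos in a sample is described. The comparison addresses how closely the placodes resemble embryonic glands, and here it is read for the matrix that surrounds the gland epithelium in the embryo.

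In embryonic SMGs, mesenchymal cells condense around the epithelial bud and secrete most of the interstitial matrix. Collagen chains fold into triple helices inside the cell, are trimmed after secretion, and assemble into fibrils that lysyl oxidases crosslink. Elastic fibres form on a scaffold of fibrillin microfibrils, and small leucine-rich proteoglycans bind the collagen fibrils and limit their width. Fibronectin, an adhesive glycoprotein, gathers in the clefts of the branching SMG epithelium.

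All of the values are FPKM, the mapped fragments of a gene scaled to transcript length and to the mapped fragments of the sample, so that levels can be compared between genes. For tests, they were transformed as log2(FPKM + 1), and limma was fitted to the 13193 features whose FPKM averaged at least 1 across the 4 samples. Log2 fold changes are placode minus SMG on this scale, and a feature was called at a Benjamini-Hochberg adjusted p below 0.05. Nothing states that the 2 samples of a group came from separate cultures or litters, so that p-values measure the spread between these samples, which may be technical. With 2 samples per group, the smallest two-sided p of an exact permutation test is 0.333. Among the low values of genes with 1 annotated transcript, each sample had a commonest step of FPKM multiplied by length. If this step is 1 fragment, the depth in M (mega) fragments was 16.2 and 16.6 for the placodes and 15.9 and 19.1 for the SMGs. The absolute depth is uncertain, since with the annotated lengths only 22.3% to 25.4% of the low values came out as whole fragments within 0.05. Marker genes were compared with the labels. In the SMGs, all 10 mesenchyme markers and all 6 epithelium markers had an FPKM of at least 1 in both samples. In the placodes, 9 of the 10 mesenchyme markers and 3 of the 6 epithelium markers reached this level, and Krt5, Krt14 and Krt15, keratins of the gland epithelium, were listed at 0 in both placode samples.

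The interstitial matrix genes were lower in the placodes than in the SMGs. Of the 41 members tested, limma called 39 lower and 0 higher in the placodes, while 40.4% of all tested features were called lower and 35.7% higher (76.2% in either direction). At an unadjusted p below 0.05, 0 members were higher. At least 2-fold differences were called for 34 members, all lower, against 15.2% of all tested features lower and 14.1% higher by this fold. At least 4-fold lower were 23 members, against 5.09% of all tested features, and at least 8-fold lower were 11, against 1.68%. These folds are on the log2(FPKM + 1) scale, which shrinks the folds of low genes. Col14a1, Fbln5 and Mfap5 are not among the 11. By the ratio of mean FPKM, the SMGs were 16.9, 34.6 and 36.0 times as high for these. The median log2 fold change of the tested members was -2.40, beside -0.05 over all tested features. Of the 41, 5 members (Col9a1, Col14a1, Fbln5, Mfap5 and Thbs2) passed the minimum FPKM only through the SMGs, so that these had to differ. Of the 36 tested members with a mean FPKM of at least 1 in both groups, 34 were called lower. Col5a3, Fmod and Prelp were not tested. Over all 44, both placode samples were below both SMG samples for 41 members, both were above for 1 (Prelp), and the groups overlapped for 2 (Loxl2 and Aspn). Among all tested features the groups did not overlap for 88.4%. In these bulk samples, fewer matrix-producing cells and less matrix RNA per cell cannot be told apart.

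**Figure D1:**
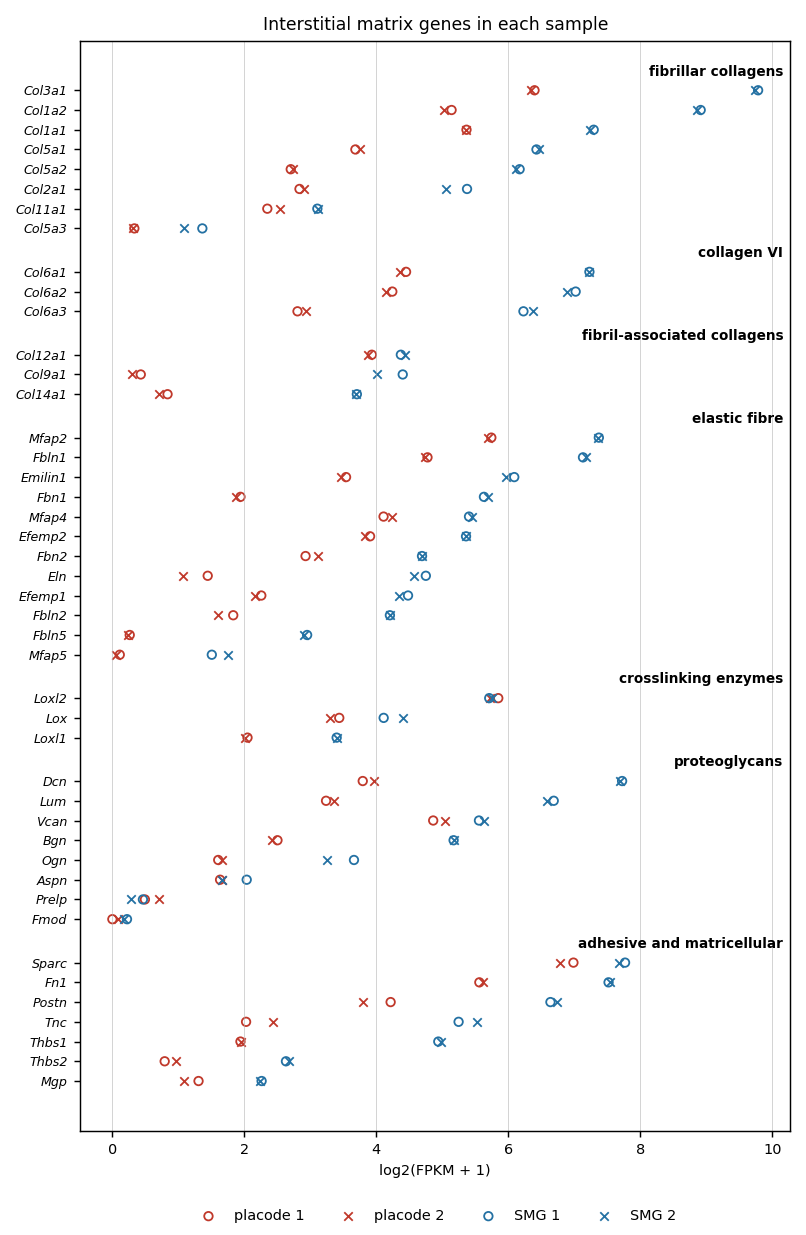
Expression of the 44 interstitial matrix genes as log2(FPKM + 1) in each of the 4 samples, ordered by role and by level in the SMGs. Red symbols are the placode samples and blue symbols the SMG samples (circles for sample 1, crosses for sample 2). The red symbols lie to the left of the blue ones for 41 genes. They overlap for Loxl2 and Aspn and lie to the right for Prelp.

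The 44 genes made up 0.194% and 0.188% of all FPKM summed per placode sample and 0.984% and 0.992% per SMG sample. Mitochondrial transcripts held 5.93% and 5.88% of this sum in the placodes and 10.7% and 8.07% in the SMGs. Without mitochondrial, ribosomal protein and hemoglobin genes in the sum, the mean share of the members was 0.226% in the placodes and 1.22% in the SMGs. Summed over the list, the SMGs were 5.39 times as high as the placodes. Even so, many matrix transcripts were present in the placodes. An FPKM of at least 1 in both samples was found for 36 members in the placodes and for 42 in the SMGs, and an FPKM of at least 10 for 18 and 33. Between the samples of one group, the median absolute difference of the members on the log2(FPKM + 1) scale was 0.0938 in the placodes and 0.0521 in the SMGs. Over all tested features it was 0.0827 and 0.0863. The largest differences between the placode samples, sample 1 minus sample 2, were 0.42 for Postn and -0.41 for Tnc.

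Col3a1, the chain of collagen III that runs with collagen I in soft embryonic tissue, was the most abundant member in the SMGs. Its FPKM was 83.3 and 79.8 in the placodes and 881 and 849 in the SMGs, and it ranked 34 among all features in the SMGs against 688 in the placodes. The groups were far apart (log2 fold change -3.39, standard error 0.05, adjusted p = 1.94e-07). Col1a2 encodes the second chain of collagen I, the main collagen of connective tissue. Its FPKM of 34.3 and 31.7 in the placodes stood against 482 and 464 in the SMGs (log2 fold change -3.8, standard error 0.06, adjusted p = 1.55e-07). Col1a1 encodes the other chain of the collagen I helix. It differed less, with an FPKM of 40.2 and 39.9 in the placodes and 156 and 151 in the SMGs (log2 fold change -1.91, adjusted p = 5.24e-07). Collagen V starts the assembly of collagen fibrils. Its chains Col5a1 and Col5a2 had log2 fold changes of -2.73 and -3.43, and the third chain, Col5a3, was low throughout, with an FPKM of 0.260 and 0.248 in the placodes and 1.57 and 1.12 in the SMGs. Col2a1, known from cartilage and the notochord, had an FPKM of 6.14 and 6.46 in the placodes and 40.5 and 32.1 in the SMGs (log2 fold change -2.34). Col11a1, a partner of collagen II in cartilage fibrils, was the fibrillar collagen with the smallest difference. It was at 4.09 and 4.82 in the placodes and 7.61 and 7.69 in the SMGs, still without overlap (log2 fold change -0.67, standard error 0.10, adjusted p = 0.00103). All 7 fibrillar collagens tested were called lower, against 40.4% of all tested features, with a median log2 fold change of -2.73.

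The bases just before the RefSeq start are shown for 4 abundant members. Col3a1 and Col1a2 were the most abundant in the SMGs and both over 8-fold lower in the placodes. Sparc and Vcan were both abundant in the placodes and under 2-fold lower there. The ends of the log2 fold changes were other members, Col9a1 and Loxl2. Each line gives the 150 bases upstream of the RefSeq start on GRCm38.p6, 5′ to 3′ on the strand of the gene. For Col1a2 and Sparc this start, and the window before it, lie inside the span of the gene in GENCODE M21, which begins at 4504814 for Col1a2 and, on the minus strand, at 55423183 for Sparc. Capitals mark matches, on either strand, to the TATA box letters TATAAA, the CCAAT box letters CCAAT or the GC box letters GGGCGG.
Col3a1 (chr1:45311388-45311537, + strand): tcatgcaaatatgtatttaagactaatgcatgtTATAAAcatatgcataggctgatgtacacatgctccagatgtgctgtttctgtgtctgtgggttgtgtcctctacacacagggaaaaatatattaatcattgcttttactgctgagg
Col1a2 (chr6:4505468-4505617, + strand): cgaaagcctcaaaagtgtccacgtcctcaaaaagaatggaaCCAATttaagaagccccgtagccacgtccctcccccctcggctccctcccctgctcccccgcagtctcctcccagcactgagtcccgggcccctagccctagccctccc
Sparc (chr11:55420081-55420230, - strand): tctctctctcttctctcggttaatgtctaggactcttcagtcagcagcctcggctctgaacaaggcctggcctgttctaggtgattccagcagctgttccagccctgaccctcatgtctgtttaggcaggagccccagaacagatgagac
Vcan (chr13:89742513-89742662, - strand): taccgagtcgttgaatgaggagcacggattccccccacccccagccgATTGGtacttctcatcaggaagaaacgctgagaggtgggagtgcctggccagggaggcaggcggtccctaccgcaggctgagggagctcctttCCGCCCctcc
In these windows, Col3a1 held TATAAA, beginning 117 bases before the start, and Col1a2 held CCAAT, beginning 109 bases before it. Vcan held both CCAAT and GGGCGG on the opposite strand, at 103 and 10 bases before the start, and Sparc held none of these letters. RefSeq promoter windows were found for 27 of the 44 members. Within 250 bases upstream, TATAAA was found in 18.5% of these against 13% of the windows of 27025 genes, CCAAT in 29.6% against 34.5%, and GGGCGG in 51.9% against 32.9%. A match describes the letters only.

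Collagen VI forms beaded filaments near the cell surface from chains that assemble together. All 3 chains were called lower, against 40.4% of all tested features. Col6a1 had an FPKM of 20.9 and 19.4 in the placodes and 149 and 148 in the SMGs (log2 fold change -2.82, adjusted p = 2.43e-07). Col6a2 was close to it in both groups, at 17.9 and 16.7 against 129 and 117 (log2 fold change -2.76). Col6a3, the largest chain, was at 5.99 and 6.62 against 74.0 and 81.7 and differed by -3.43 (standard error 0.07). The fibril-associated collagens sit on the surface of collagen fibrils, and they covered nearly the whole range of the list. Col9a1, which coats fibrils of collagen II in cartilage, had the lowest log2 fold change of all members, at -3.84 (standard error 0.15, adjusted p = 2.88e-06). Its FPKM was 0.348 and 0.230 in the placodes and 20.1 and 15.1 in the SMGs. Col14a1 followed with 0.785 and 0.641 against 12.04 and 11.98 (log2 fold change -2.93). Col12a1, by contrast, was at 14.3 and 13.6 in the placodes and 19.7 and 20.5 in the SMGs (log2 fold change -0.50, standard error 0.06, adjusted p = 0.000448).

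All 12 elastic fibre genes were tested, and all 12 were called at least 2-fold lower in the placodes, against 15.2% of all tested features. Their median log2 fold change was -2.30. Among these, Fbln5 and Mfap5 passed the minimum FPKM only through the SMGs, so that they had to differ. Fbn1, the main fibrillin of microfibrils, had an FPKM of 2.84 and 2.66 in the placodes and 48.5 and 50.4 in the SMGs. Its log2 fold change of -3.75 (with a standard error of 0.07 and an adjusted p of 2.22e-07) was the lowest of this group at a pseudocount of 1. At a pseudocount of 0.1, Fbln5 was lower (-4.53 against -4.12 for Fbn1), and at 0.001 both Fbln5 (-5.11) and Mfap5 (-5.25) were lower than Fbn1 (-4.17). On the assumed depth, Mfap5 rests on only about 5 and 2 fragments in the placode samples. Fbn2, the fibrillin of early embryonic tissue, was at 6.61 and 7.65 against 24.9 and 24.8 and differed by -1.67 (standard error 0.08). Fbn2 was above Fbn1 in both placode samples and below it in both SMG samples. Eln, which encodes tropoelastin, had an FPKM of 1.72 and 1.10 in the placodes and 25.9 and 22.8 in the SMGs (log2 fold change -3.40). Of the fibulins, which link elastin to microfibrils and basement membranes, Fbln1 was the most abundant, at 26.4 and 25.6 against 139 and 144 (log2 fold change -2.40). Fbln5, which is needed for elastic fibre assembly, was at 0.200 and 0.183 against 6.73 and 6.50 (log2 fold change -2.68). Fbln2, Efemp1, Efemp2 and Emilin1, further glycoproteins of elastic fibres, had log2 fold changes between -2.52 and -1.50. Mfap2, Mfap4 and Mfap5 encode proteins of the microfibrils. Mfap2 was the fourth highest member in the placodes, at 52.5 and 50.9 against 165 and 163 (log2 fold change -1.64, adjusted p = 8.06e-07), and Mfap4 had the smallest difference of the group, -1.25. Mfap5 was at 0.0808 and 0.0359 in the placodes and 1.84 and 2.36 in the SMGs, so that its log2 fold change of -1.55 is held down by the pseudocount.

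The lysyl oxidases crosslink collagen and elastin. Loxl2 was the member with the highest log2 fold change, 0.05 (standard error 0.06, adjusted p = 0.472). Its FPKM was 56.6 and 51.6 in the placodes and 51.4 and 53.0 in the SMGs, so that the groups overlapped. With these values it ranked 3 among the members in the placodes and 17 in the SMGs. Lox itself was lower, at 9.84 and 8.87 against 16.3 and 20.3 (log2 fold change -0.89, adjusted p = 0.000513), and Loxl1, which acts on elastic fibres, was at 3.14 and 3.04 against 9.55 and 9.54 (log2 fold change -1.37).

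**Figure D2:**
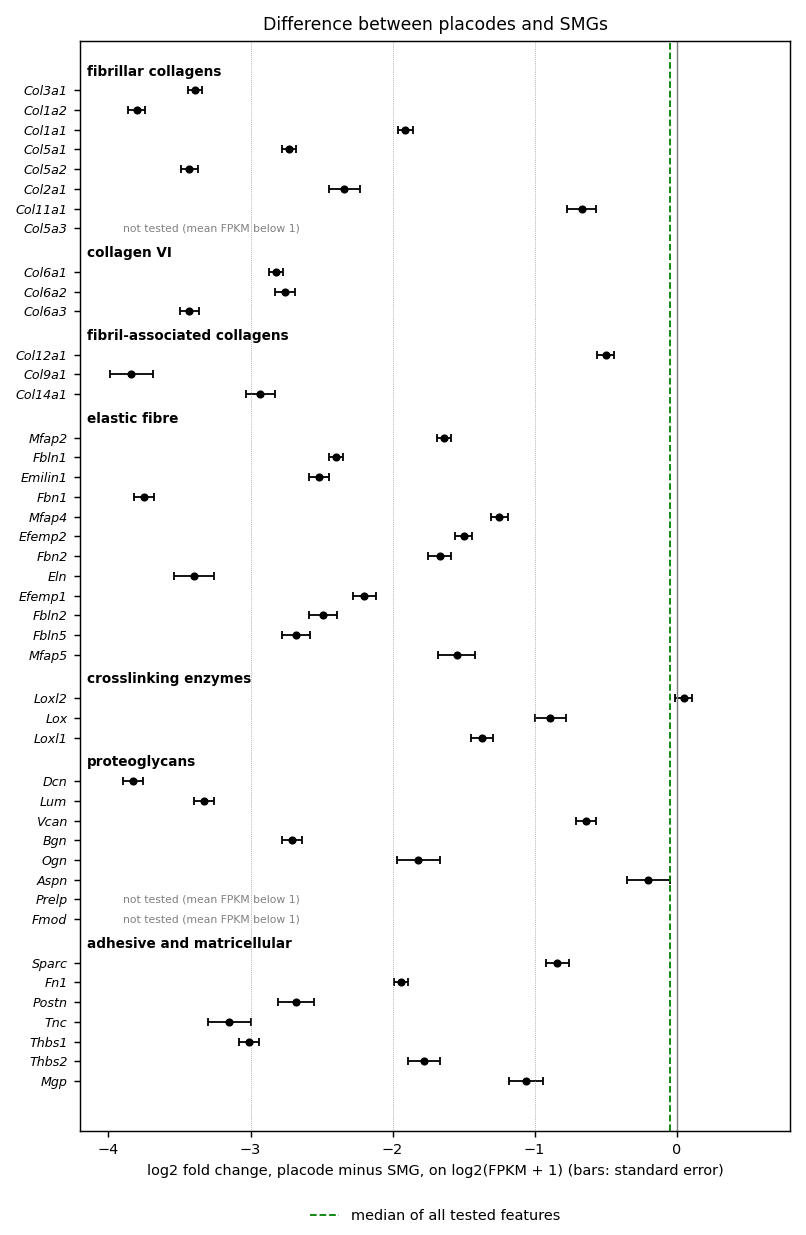
Log2 fold change of each tested member, placode minus SMG, on the log2(FPKM + 1) scale with its standard error from limma, 2 samples per group. The dashed line is the median of all 13193 tested features, -0.05. All points but that of Loxl2 lie below 0, from -3.84 for Col9a1 to -0.20 for Aspn, and 34 of those called lie at -1 or below.

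Of the 6 proteoglycans tested, 5 were called lower, 4 of them at least 2-fold. Among all tested features, 40.4% were called lower and 15.2% at least 2-fold lower. Dcn, Lum and Bgn encode decorin, lumican and biglycan, small leucine-rich proteoglycans that bind collagen fibrils. Dcn had an FPKM of 12.9 and 14.7 in the placodes and 210.4 and 207 in the SMGs, where it was the fourth highest member, and its log2 fold change was -3.83 (standard error 0.07, adjusted p = 2.22e-07). Lum was at 8.44 and 9.31 against 102 and 95.1 (log2 fold change -3.33), and Bgn at 4.66 and 4.37 against 35.02 and 35.04 (log2 fold change -2.71). Ogn, another member of this family, had 2.04 and 2.18 in the placodes and differed between the SMG samples, at 11.7 and 8.51 (log2 fold change -1.82, standard error 0.15). Vcan encodes versican, a large proteoglycan that binds hyaluronan and is abundant in loose embryonic matrix. Its FPKM of 28.1 and 32.01 in the placodes lay closer to the 46.0 and 48.7 of the SMG samples (log2 fold change -0.64, standard error 0.07, adjusted p = 0.000328). Aspn, which encodes asporin, did not pass the threshold. It was at 2.10 and 2.16 in the placodes and 3.10 and 2.15 in the SMGs (log2 fold change -0.20, standard error 0.15, adjusted p = 0.255). Without SMG sample 2, whose value lay with the placodes, its log2 fold change was -0.39, and without SMG sample 1 it was -0.01. Each of these fits leaves 1 SMG sample. Prelp and Fmod, proteoglycans of firmer connective tissue, were barely present. Prelp was at 0.408 and 0.640 in the placodes and 0.378 and 0.213 in the SMGs. Fmod was listed at 0 and at 0.0578 in the placodes and had 0.166 and 0.131 in the SMGs. On the assumed depth, a count of 0 allows up to 3 fragments, or an FPKM of 0.056 for Fmod in placode sample 1.

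All 7 adhesive and matricellular genes were called lower, against 40.4% of all tested features. Thbs2 passed the minimum FPKM only through the SMGs, so that it had to differ. Sparc, a collagen-binding glycoprotein, was the most abundant member in the placodes and ranked 406 among all features there. Its FPKM was 126 and 109.7 in the placodes and 217 and 205 in the SMGs (log2 fold change -0.84, standard error 0.08, adjusted p = 0.000108). Fn1, which encodes fibronectin, was the fifth highest member in both groups, at 46.2 and 48.3 against 182 and 185 (log2 fold change -1.94, adjusted p = 5.50e-07). Postn encodes periostin, a matricellular protein of fibroblasts. It was at 17.6 and 12.9 in the placodes and 98.6 and 106 in the SMGs (log2 fold change -2.68, standard error 0.13). Tnc encodes tenascin-C, which marks condensing and remodelling mesenchyme, and it was at 3.07 and 4.40 against 37.0 and 44.9 (log2 fold change -3.15, standard error 0.15). The thrombospondin genes Thbs1 and Thbs2 had log2 fold changes of -3.01 and -1.78, the latter from 0.732 and 0.957 against 5.19 and 5.42. Mgp, an inhibitor of mineral deposition, was low in both groups, at 1.47 and 1.11 against 3.795 and 3.705 (log2 fold change -1.06).

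The make-up of the matrix transcripts also differed. The 14 collagen genes accounted for 34.7% and 34.9% of the members' summed FPKM in the placodes and for 56.2% and 55.4% in the SMGs. Fibrillar collagens held 26.2% and 26.5% in the placodes against 45.5% and 44.8% in the SMGs. Adhesive and matricellular genes had the larger share in the placodes, at 27.9% and 26.4% against 15.2% and 15.6%. Within these, Sparc alone held 17.7% and 16.1% in the placodes and 5.73% and 5.52% in the SMGs. The crosslinking enzymes held 9.8% and 9.3% against 2.0% and 2.2%, mostly through Loxl2 with 7.98% and 7.56% against 1.36% and 1.43%. Elastic fibre genes took 19.4% and 19.8% in the placodes and 15.8% and 16.0% in the SMGs. These shares lay apart between the groups by more than the spread between the samples of one group. The shares of the proteoglycans, at 8.3% and 9.6% in the placodes against 10.8% and 10.7%, did not overlap. Here the gap between the nearest samples of the groups was smaller than the spread between the placode samples. The shares are parts of one sum and do not vary independently.

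**Figure D3:**
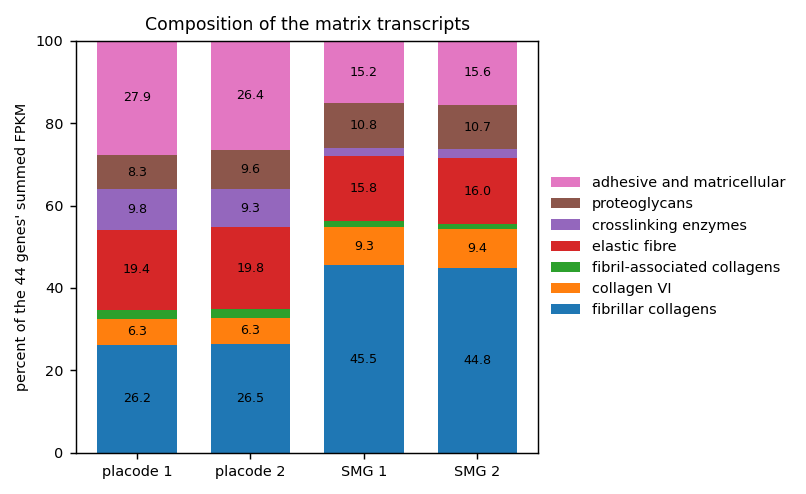
Percent of the summed FPKM of the 44 genes held by each role, in each sample (stacked bars that sum to 100). Fibrillar collagens take 26.2% and 26.5% in the placodes and 45.5% and 44.8% in the SMGs, while crosslinking enzymes and adhesive genes take a larger share in the placodes.

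Ratios between chains of one collagen, and between genes of different matrix molecules, were not all alike in the groups. Col3a1 to Col1a1 and Fbn2 to Fbn1 are ratios of the latter kind. The ratio of Col1a1 to Col1a2 in FPKM was 1.17 and 1.26 in the placodes and 0.324 in both SMG samples. Col3a1 exceeded Col1a1 by a factor of 2.07 and 2.00 in the placodes and of 5.65 and 5.64 in the SMGs. The ratio of Col5a1 to Col5a2 was 2.15 and 2.21 against 1.2 and 1.27. For collagen VI, the ratio of Col6a1 to Col6a2 was 1.16 in both placode samples and 1.16 and 1.26 in the SMGs, so that the groups overlapped. Col6a3 to Col6a2 was lower in the placodes, at 0.334 and 0.395 against 0.574 and 0.696. The ratio of Fbn2 to Fbn1 was 2.33 and 2.88 in the placodes and 0.512 and 0.491 in the SMGs. For these ratios the exact permutation test cannot reach the threshold, and they are given as a description. The size of such a ratio depends on the transcript lengths behind FPKM, which are not given in the sources used here.

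**Figure D4:**
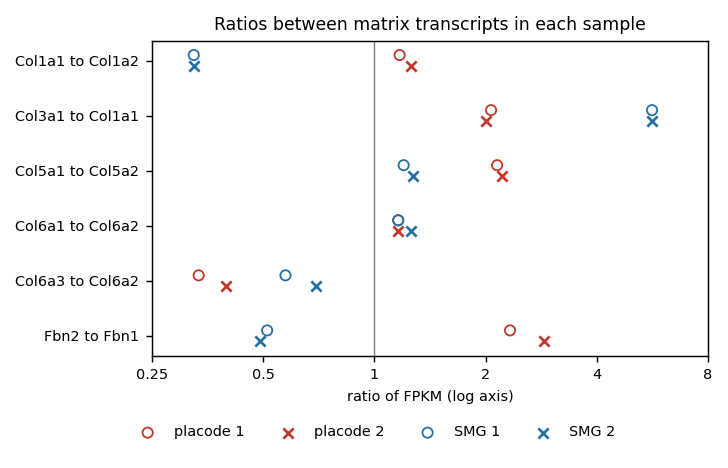
Ratio of FPKM between 2 matrix genes in each sample, on a log axis. Placode and SMG samples lie apart for Col1a1 to Col1a2 (1.17 and 1.26 against 0.324) and for Fbn2 to Fbn1 (2.33 and 2.88 against 0.512 and 0.491), and overlap for Col6a1 to Col6a2.

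Some members are neighbours in the genome, and the 5 closest pairs were 24614 to 115839 bases apart in GENCODE M21 (GRCm38). On chromosome 1, Col3a1 (45311538 to 45349706) and Col5a2 (45374321 to 45503282) are read in opposite directions and had log2 fold changes of -3.39 and -3.43. On chromosome 10, Col6a2 and Col6a1 had -2.76 and -2.82, and Dcn (97479609 to 97518143) and Lum (97565128 to 97572703) had -3.83 and -3.33. The proteoglycan genes Aspn and Ogn on chromosome 13 differed from each other, at -0.20 and -1.82. Prelp and Fmod on chromosome 1 were both under an FPKM of 1 in all samples. In this annotation 14 members share exonic bases with another gene, on the opposite strand for most of them, and 30 share none. Whether the counting used strand is not given in the sources used here, so that reads of such pairs cannot be told apart. Of the 14, Loxl2, Aspn and Lox differed by less than 2-fold, and Prelp was not tested. The others were called at least 2-fold lower: Col3a1, Col5a1, Eln, Fbn1, Fbn2, Mfap4, Efemp2, Fn1, Tnc and Thbs1. Col3a1 shares bases with Gm47302 on its own strand, so that counting by strand would not separate them.

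Collagen also needs enzymes and chaperones, and 32 such genes outside the list were found in the data. Of the 28 tested, 21 were called lower and 3 higher in the placodes, 4 did not pass, and the median log2 fold change was -1.11. Over all tested features, 40.4% were called lower and 35.7% higher. Adamts14 and Tll2 passed the minimum FPKM only through the SMGs and the placodes, respectively. At a pseudocount of 1 the lowest was Fkbp10, a folding enzyme of the endoplasmic reticulum that acts on procollagen, with an FPKM of 4.06 and 4.49 in the placodes and 65.5 and 66.2 in the SMGs (log2 fold change -3.66, adjusted p = 2.22e-07). Close to it, Crtap, a part of the prolyl 3-hydroxylase complex, was at 4.39 and 4.53 against 57.5 and 58.0. By the ratio of mean FPKM, Adamts14, a procollagen N-proteinase, differed more, with the SMGs 69.2 times as high, against 15.4 times for Fkbp10. Serpinh1, the collagen chaperone HSP47, remained at 112 and 104.6 in the placodes against 385 and 399.9 (log2 fold change -1.85). The 3 genes called higher were P4ha1, P4ha2 and Tll2. P4ha1 and P4ha2 encode catalytic subunits of prolyl 4-hydroxylase, which stabilizes the collagen helix. P4ha2 had a log2 fold change of 1.46 at a pseudocount of 1 (adjusted p = 3.13e-05), with an FPKM of 26.3 and 22.9 in the placodes and 9.003 and 7.657 in the SMGs. P4ha1 was at 55.8 and 52.3 against 25.1 and 20.1 (log2 fold change 1.23). Tll2, a relative of the procollagen C-proteinase Bmp1, was at 2.16 and 2.67 against 0.307 and 0.196 (log2 fold change 1.45). By the ratio of mean FPKM, Tll2 was 9.61 times as high in the placodes and P4ha2 2.95 times. Bmp1 itself was called lower (log2 fold change -2.19).

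Markers of other cell types moved with the groups as well, and their part in the matrix differences was not tested. For each list below, the share to compare is that of all tested features, 40.4% called lower and 35.7% called higher. Of the 10 mesenchyme markers, 10 were called lower in the placodes, with a median log2 fold change of -2.56, and their summed FPKM was 56.6 and 58.3 in the placodes and 512 and 541 in the SMGs. The differences ran from -5.19 for Fgf10, which was at 0.465 and 0.123 in the placodes, to -0.48 for Thy1. Cartilage markers were mixed. Of 8 tested, 4 were called lower and 4 higher, and their summed FPKM was 27.3 and 28.5 against 51.5 and 49.2. Col9a3, a partner of Col9a1, had the lowest log2 fold change at a pseudocount of 1, -3.64, and Acan, the main proteoglycan of cartilage, was at 0.00665 and 0.0164 in the placodes and 4.06 and 4.23 in the SMGs. The 4 called higher were Cnmd, Col11a2, Sox5 and Sox6, of which Sox6 had the highest log2 fold change, 2.67. Matn1, a cartilage matrix gene, was below 0.1 in every sample.
Of the notochord and floor plate markers, the 2 tested were called higher, Shh by 1.86 and Spon1 by 0.74 on the log2 scale, and the summed FPKM was 13.8 and 17.9 in the placodes against 6.54 and 5.56. Noto was listed at 0 in all samples. All 7 neural ectoderm markers were higher, with a summed FPKM of 819 and 851 against 93.4 and 86.1 and log2 fold changes from 1.03 for Nes to 6.80 for Hes5. The 5 tested markers of parietal and visceral endoderm were all lower, from -3.17 for Gata6 to -1.52 for Sox7, with a summed FPKM of 8.85 and 8.69 against 53.5 and 52.6. Gata4, Ttr and Afp were not tested and were below an FPKM of 1 in every sample. Gata4 was higher in the placodes, at 0.152 and 0.142 against 0.0185 and 0.0143, as was Ttr, at 0.126 and 0.140 against 0 and 0. For Afp the groups overlapped.
Markers of further cell types were mostly higher in the SMGs. The 6 endothelium markers summed to an FPKM of 121 and 126 in the SMGs and 10.1 and 9.39 in the placodes, and all 6 were called lower, from -4.10 for Tie1 to -1.93 for Cdh5. Of these, Pecam1, Kdr, Tek, Tie1 and Cldn5 had a placode mean FPKM below 1 and were tested only through the SMGs, so that they had to differ. Skeletal muscle markers summed to 159 and 115 in the SMGs against 2.81 and 2.41, with 5 of 5 tested called lower, from -5.86 for Actc1 to -2.44 for Des, and Myog was listed at 0 in both placode samples. Myod1, Myog, Des and Actc1 were likewise tested only through the SMGs. Of the smooth muscle and pericyte markers, 2 of 3 tested were called lower, Cspg4 (log2 fold change -1.91) and Acta2 (-1.72), while Tagln did not pass (log2 fold change -0.14, adjusted p = 0.426). Their summed FPKM was 12.4 and 11.3 in the placodes and 43.3 and 33.8 in the SMGs. Of the 6 epithelium markers, 5 were lower and Krt8 did not pass (log2 fold change 0.13, adjusted p = 0.322), with a summed FPKM of 37.3 and 39.5 against 347 and 315. The lowest was Krt15, listed at 0 in the placodes with 128 and 121 in the SMGs. Blood markers summed to 2264 and 2154 in the SMGs and to 0.0258 and 0.275 in the placodes, and 4 of 4 tested were lower. They ranged from Hbb-y, an embryonic globin listed at 0 in the placodes, to Alas2, a heme enzyme, with 8.54 and 7.49 in the SMGs and 0 and 0.124 in the placodes. All of the blood genes tested passed the minimum only through the SMGs, as did Krt5, Krt14, Krt15, Cspg4, Fgf10, Sox17, Gata6, Thbd, Acan, Epyc and Col9a3. Shh, Sox1, Pax6, Hes5, Sox5 and Col11a2 passed it only through the placodes. The counts of called genes in these lists were in part fixed by that minimum.

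**Figure D5:**
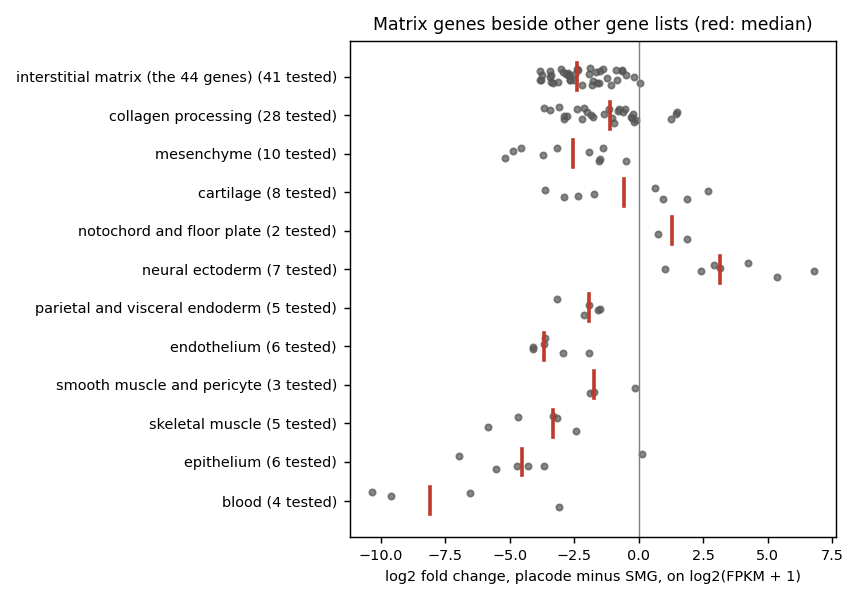
Log2 fold changes, placode minus SMG on the log2(FPKM + 1) scale, of the tested genes in the interstitial matrix list, the collagen processing list and 10 marker lists (points, spread vertically at random), with the median of each list in red. The medians are -2.40 for the matrix genes, -1.11 for collagen processing, -2.56 for mesenchyme and 3.14 for neural ectoderm. For genes at 0 in one group the size depends on the pseudocount of 1.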

How the data were processed

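RNA-seq of 2 samples of PSC-derived SG placodes and 2 samples of E12.5 SMGs was used, grouped by the sample titles. The authors prepared libraries with a NEBNext Ultra kit, mapped paired-end reads with HISAT2 and deposited FPKM per feature and sample. The submitters' processing notes list GRCm38, and also GRCh38. The version of HISAT2, the annotation, the use of strand and the program behind FPKM are not given in the sources used here. The table held 22036 Ensembl genes and 2735 assembled loci, and all 44 members matched GENCODE M21 by identifier and symbol.

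A linear model with group as its only term was fitted to log2(FPKM + 1) by limma 3.58.1 under R 4.3.3 (eBayes with trend) over features with a mean FPKM of at least 1, two-sided, with Benjamini-Hochberg adjustment over 13193 features. The procedure was tested on simulated data. Depth was estimated from FPKM multiplied by exonic length in kb. The commonest value of genes with 1 transcript was taken as 1 fragment. For the assembled loci, FPKM was not multiplied by a length. Their commonest FPKM was in number 3.333 times the gene step in all 4 samples, which is not a count of fragments. Floors cover counting error only.

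The members and the lists of collagen processing and marker genes were chosen with earlier results of these data known. Sample values were given at least for the 3 members with the highest mean in each group, the 5 at either end of the log2 fold changes, and those that missed the threshold or had a mean FPKM below 1. For the other lists, the highest and lowest members and those against the list's median were named, and Matn1, Noto, Acan, Crtap, Adamts14, Serpinh1, Bmp1 and Myog were added after their values were seen. Alternatives changed the pseudocount, the minimum FPKM, the scaling, the variance model, the block and the replicates, 1 at a time. Promoters were read from RefSeq (GRCm38.p6). Figures were drawn with Python 3.11.15.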

Additional observations from a re-analysis of the deposited data

How the results depend on the processing

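The number of members called lower, 39, was 35 to 40 under every alternative, the lowest with a minimum of 5 for mean FPKM, where fewer members were tested, and 0 members were called higher under each of them. The median log2 fold change of the tested members, -2.40, was -2.62 and -2.66 at pseudocounts of 0.1 and 0.001, -2.27 with no minimum, -2.50 at a mean FPKM of at least 5 and -2.34 with median-ratio scaling. Leaving out 1 sample gave -2.49 to -2.38. Without mitochondrial, ribosomal protein and hemoglobin genes in the sum, the members held 0.226% in the placodes and 1.22% in the SMGs, against 0.191% and 0.988%. Loxl2, which did not pass in any setting, was at -0.02 to 0.12 when 1 sample was left out. It turned to -0.03 with quantile normalization (adjusted p = 0.615) and to -0.02 without placode replicate 1 (adjusted p = 0.807), and the cause was not tested. Aspn passed only without SMG replicate 2, by -0.39, where 1 SMG sample is left, and was at -0.01 without SMG replicate 1. The other member values kept their direction and their side of the threshold, 648 of 651 in all.

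In the titles, same-numbered samples share only a number. Deviations of the replicates 1 from their group means correlated at -0.0348 over the tested features. This value cannot tell whether these samples shared a preparation or a batch. With the replicate block, 39 members were called lower and 10043 features in all, against 10049 without it. FPKM cannot separate the share of mesenchyme in a sample from expression per cell.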
